A study of Mus musculus with 6 samples.

Results

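Genes of fatty acid activation, oxidation, synthesis, elongation and desaturation, with the PPAR receptors and their PGC-1 coactivators, were compared between testes of Gipr knockout and wild-type mice. They comprised 36 genes, listed by name in a rule that uses no measured value, though the list was chosen with earlier results of these data known. The genes took in every non-control probe that the array files name after any of them, 55 of 55681 probes. All 36 were measurable, among 26933 genes tested in all. None of the 36 passed the test over all genes, and the share with a low unadjusted p was close to that of the whole array.

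The animals were Gipr KO mice and wild-type mice of the C57BL/6 strain, aged 8 weeks, 3 mice per genotype as the series design states, and the labels name no treatment. Whole testis was taken after an overdose of anaesthetic, and total RNA of each sample was hybridised in 1 colour (Cy3) to its own Agilent array. Gipr encodes the receptor for the gut hormone GIP, which acts through cAMP. The sources used here give neither the construction of the knockout allele nor whether the wild-type mice were littermates. Whole testis holds germ cells at all stages together with Sertoli, Leydig, myoid, vascular and immune cells, so fewer cells of a type and less RNA per cell cannot be told apart in these values.

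Values are given as relative signal, where 1 is the array's own 75th percentile of the processed probe intensity (718 to 787 units on the 6 arrays), and differences as log2 of knockout over wild type. A probe's level can be set against its own level on another array, not against another probe. The share of spots well above background was 70.6% to 76.0% per array, controls left out. The slide was shared by all 6 arrays, with knockout testes in row 1 and wild-type testes in row 2, and the effect of row and that of genotype cannot be told apart. The Gipr probe read 0.196, 0.202 and 0.229 in the knockout and 1.06, 1.11 and 1.35 in the wild type, and was 5.58-fold lower (limma adjusted p = 0.00196). Which part of Gipr was removed is not stated in the labels, so whether this probe lies inside the deletion was not tested. The germ cell genes Prm1 and Tnp1 and the Leydig gene Cyp17a1 were well above background on all 6 arrays.

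Fatty acids are first joined to coenzyme A by the long-chain acyl-CoA synthetases. Carnitine palmitoyltransferases then hand the chain to carnitine and back to coenzyme A for its entry into mitochondria. Rounds of beta-oxidation shorten it there, while very long and branched chains are handled in peroxisomes. Building runs the other way, from malonyl-CoA made by acetyl-CoA carboxylase to palmitate, which elongases and desaturases turn into the long polyunsaturated chains that testis membranes and sperm are rich in. The PPAR nuclear receptors bind fatty acids and switch on oxidation or storage genes, and the PGC-1 coactivators boost them and mitochondrial growth; Ppargc1a is a well-known target of cAMP signalling in liver and brown fat.

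Of the 36 genes, 0 passed an adjusted p under 0.05 in limma, against 19 of 26933 genes on the whole array (0.0705%). Their adjusted p ranged from 0.597 to 0.991. Before adjustment, 3 of the 36 had a p under 0.05, beside 7.42% of all genes. They were Ppargc1a and Ppargc1b as higher (3.75% of all genes) and Acacb as lower in the knockout (3.67% of all genes). Knockout and wild-type values did not overlap for 5 of the 36, against 13.0% of all genes. Of these, Ppargc1a and Ppargc1b were higher (7.10% of all genes) and Acaa2, Acacb and Fads1 lower (5.94% of all genes). Both counts therefore lie near the background. In all, 15 genes were higher and 21 lower, with a median difference of -0.03, beside 13669 higher and 13264 lower and a median of 0.0021 over all genes. Without knockout replicate 2, 7 of the 36 (19.4%) had an unadjusted p under 0.05, beside 14.8% of all genes in that fit, and 0 of the 36 passed after adjustment.

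The pooled SD between animals of a genotype was 0.08 for the median member, on the log2 scale, and 0.11 for the median of all genes. This SD fell with signal level, from 0.24 for the median gene of the dimmest quintile to 0.07 in the brightest. Quintiles 4 and 5, the brightest, hold 13 and 9 of the 36 genes. The 95% interval of the difference lay within 0.3 on the log2 scale in both directions for 21 of the 36 genes and 47.5% of all genes. It lay within 0.2 for 7 of the 36 and 17.0% of all genes, and within 0.5, a change of 41.4%, for 32 of the 36 and 79.0% of all genes. The exceptions at 0.5 were Acox2, whose probe was dim, Fads1, Fads2 and Ppargc1a. No member lies on chromosome 7, which carries Gipr.

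**Figure D1:**
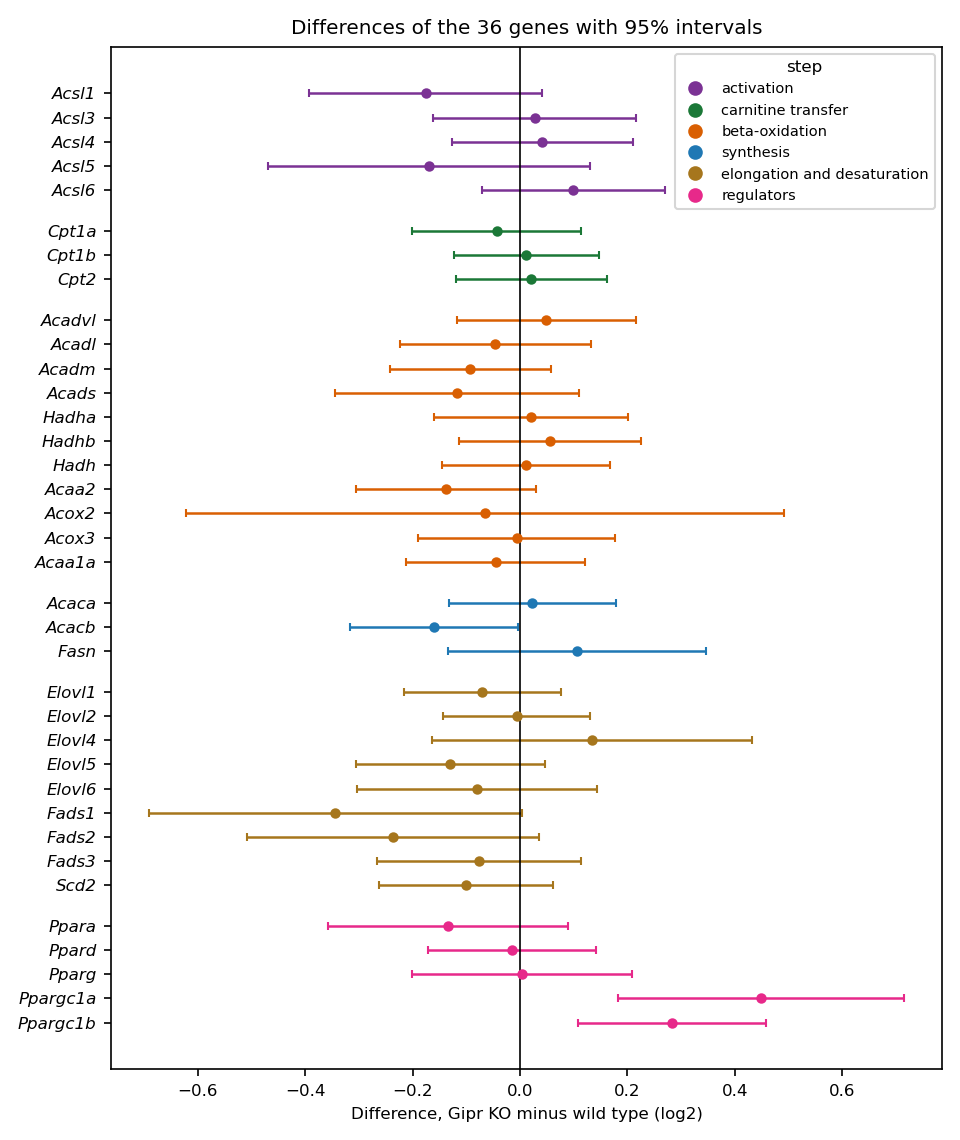
Difference of each of the 36 genes, Gipr KO minus wild type on the log2 scale (x axis), with points for the limma estimate and bars for the 95% interval over 3 arrays of each genotype, coloured by step. The intervals of Ppargc1a (0.18 to 0.72), Ppargc1b (0.11 to 0.46) and Acacb (-0.32 to -0.0029) leave out 0, and 0 genes passed after adjustment over all genes.

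Activation showed no called change. Of the 5 acyl-CoA synthetase genes, 3 were higher and 2 lower, from -0.18 to 0.10. Acsl1, a broadly used long-chain synthetase, had a relative signal of 68.6, 77.4 and 61.9 in knockout testes and 77.6, 79.2 and 77.2 in wild-type testes. Knockout replicates 1 and 3 lay below every wild-type value and replicate 2 among them (difference -0.18 ± 0.09 SE, limma adjusted p = 0.675). The other Acsl1 probe differed by less, at -0.06 ± 0.07. Acsl5, which serves lipid synthesis in gut and liver, read 1.80, 2.09 and 1.52 in the knockout against 2.07, 1.87 and 2.11 in the wild type, with replicate 3 of the knockout the lowest. Acsl6, a synthetase of brain and germ cells that favours polyunsaturated chains, read 4.57, 4.55 and 4.19 against 3.99, 4.02 and 4.41 in the wild type, and the groups overlapped. Acsl3, a synthetase of lipid droplets, differed by 0.03 ± 0.08, and Acsl4, which is selective for arachidonate, by 0.04 ± 0.07.

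The carnitine shuttle genes showed no called change and small differences. Cpt1a, the liver-type outer membrane transferase, read 2.56, 2.63 and 2.40 in the knockout and 2.51, 2.59 and 2.71 in the wild type. Cpt1b, the muscle-type form, read 4.22, 4.49 and 4.29 in the knockout and 4.21, 4.30 and 4.38 in the wild type. Cpt2, the inner membrane enzyme that hands the chain back to coenzyme A, read 14.6, 15.4 and 15.5 in the knockout and 15.4, 14.9 and 14.5 in the wild type. The groups overlapped for all 3 genes. Their differences were -0.04, 0.01 and 0.02, and the 95% intervals together ran from -0.20 to 0.16, which still allows small changes.

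Of the 11 beta-oxidation genes, 4 were higher and 7 lower, with a median of -0.05 and 0 at an unadjusted p under 0.05. Acaa2, the mitochondrial thiolase that cuts off acetyl-CoA, read 13.0, 13.5 and 12.6 in the knockout and 14.2, 13.5 and 15.4 in the wild type. Every knockout value lay below every wild-type value, but replicate 2 of either genotype differed by little (13.47 and 13.55), and the difference was -0.14 ± 0.07 (limma adjusted p = 0.675). Acadm, the medium-chain dehydrogenase, read 3.18, 3.02 and 2.89 in the knockout and 3.32, 3.17 and 3.19 in the wild type, with a slight overlap. Acads, the short-chain dehydrogenase, read 0.227, 0.258 and 0.203 against 0.251, 0.245 and 0.246 in the wild type, and knockout values lay on either side. The dehydrogenases of longer chains, Acadl and Acadvl, differed by -0.05 ± 0.07 and 0.05 ± 0.07, and Hadh, which acts on shorter chains, by 0.01 ± 0.06. Leaving aside the dim Acox2, the intervals of the 13 carnitine and oxidation genes together ran from -0.34 to 0.23.

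Hadha and Hadhb encode the alpha and beta subunits of the mitochondrial trifunctional protein and lie head to head, with 272 bases between their RefSeq starts (GRCm38.p6). The 250 bases before the Hadhb start are shown because they fill most of the gap between these paired genes, chr5:30155003-30155252 on the plus strand, with each GGGCGG motif in capitals.
Hadhb: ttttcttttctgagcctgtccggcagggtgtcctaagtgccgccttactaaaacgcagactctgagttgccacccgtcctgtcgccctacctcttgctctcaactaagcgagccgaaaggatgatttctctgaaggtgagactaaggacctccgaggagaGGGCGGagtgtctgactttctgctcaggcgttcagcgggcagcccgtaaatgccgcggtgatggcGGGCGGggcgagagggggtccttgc
The motif, searched on both strands, occurs in 32.7% of all 32851 RefSeq windows of that length and in 25 of the 39 windows of the members, and a match of letters is a description only. Hadha read 3.27, 3.12 and 2.80 in the knockout and 2.96, 3.01 and 3.08 in the wild type. Hadhb read 16.8, 15.7 and 18.0 in the knockout and 16.6, 15.6 and 16.3 in the wild type. Neither gene separated the genotypes, at 0.02 ± 0.07 and 0.06 ± 0.07, and knockout replicate 3 was lowest of all for Hadha and highest for Hadhb.

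The peroxisomal members had differences of -0.0061 ± 0.08 for the branched-chain oxidase Acox3, -0.05 ± 0.07 for the thiolase gene Acaa1a and -0.06 ± 0.23 for the bile acid and branched-chain oxidase Acox2. The last had a relative signal of 0.0226 to 0.0377 over both genotypes, so its interval of -0.62 to 0.49 leaves moderate changes in either direction possible.

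Among the 3 synthesis genes, Acacb had the lowest unadjusted p. It encodes the acetyl-CoA carboxylase of the mitochondrial outer membrane, whose malonyl-CoA restrains carnitine transfer. Acacb read 0.425, 0.432 and 0.386 in knockout testes and 0.458, 0.464 and 0.465 in wild-type testes. All 3 knockout values were lower, by -0.16 ± 0.06, at an unadjusted p of 0.0470 and a limma adjusted p of 0.662. A further Acacb probe, at position 7401 of the transcript, was lower too, by -0.20 ± 0.08. It was dim, at 0.0363 to 0.0393 in the knockout and 0.0409 to 0.0477 in the wild type, and is not an independent replicate. Without knockout replicate 3 the difference of Acacb was -0.11 (unadjusted p = 0.108 in limma). Acaca, the cytosolic carboxylase that feeds synthesis, read 8.11, 7.75 and 8.48 in the knockout and 8.34, 7.89 and 7.71 in the wild type. Fasn, the palmitate synthase, read 0.441, 0.359 and 0.445 against 0.393, 0.365 and 0.394 in the wild type. Both overlapped between genotypes, with differences of 0.02 ± 0.06 and 0.11 ± 0.10.

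Elongation and desaturation leaned lower without a called gene: 8 of 9 were lower, with a median of -0.08, though Elovl2, near 0, turned to 0.018 and 0.023 under the scalings with quantile normalization. All 4 desaturases were among them, with Fads3 lower by its brighter probe only. Fads1 and Fads2, the delta-5 and delta-6 desaturases that make arachidonate and docosahexaenoate from dietary precursors, differed most. Fads1 read 1.28, 1.19 and 0.897 in the knockout and 1.29, 1.51 and 1.44 in the wild type. The knockout values were all lower, but those of replicate 1 of the genotypes nearly met, and the 1.27-fold difference had a 95% interval on the log2 scale of -0.69 to 0.0036 (limma adjusted p = 0.662). Without knockout replicate 3 the Fads1 difference was -0.19, against -0.34 with all arrays. Fads2 read 1.28, 1.25 and 1.13 in the knockout and 1.23, 1.58 and 1.53 in the wild type, so that wild-type replicate 1 sat among the knockout values. Its difference was -0.24 ± 0.11 (adjusted p = 0.663), and its other probe gave -0.23 ± 0.11.

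Scd2, a stearoyl-CoA desaturase that makes monounsaturated chains, read 14.8, 16.1 and 14.9 in the knockout and 16.5, 15.5 and 17.0 in the wild type. Elovl5, which lengthens polyunsaturated chains made by Fads2, read 3.64, 3.52 and 3.16 against 3.83, 3.63 and 3.83 in the wild type. Knockout replicate 1 of Elovl5 lay just above the lowest wild-type value, and the difference was -0.13 ± 0.07 (limma adjusted p = 0.688). Elovl2, which makes the very long polyunsaturated chains that sperm development needs in mice, read 13.5, 14.6 and 13.9 in the knockout and 14.2, 13.9 and 14.0 in the wild type, a difference of -0.0059 ± 0.06. Elovl4, which extends chains further still in retina and testis, was dim, at 0.0256 to 0.0305 in the knockout and 0.0239 to 0.0305 in the wild type. Elovl1 and Elovl6, of saturated chains, differed by -0.07 ± 0.06 and -0.08 ± 0.09.

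**Figure D2:**
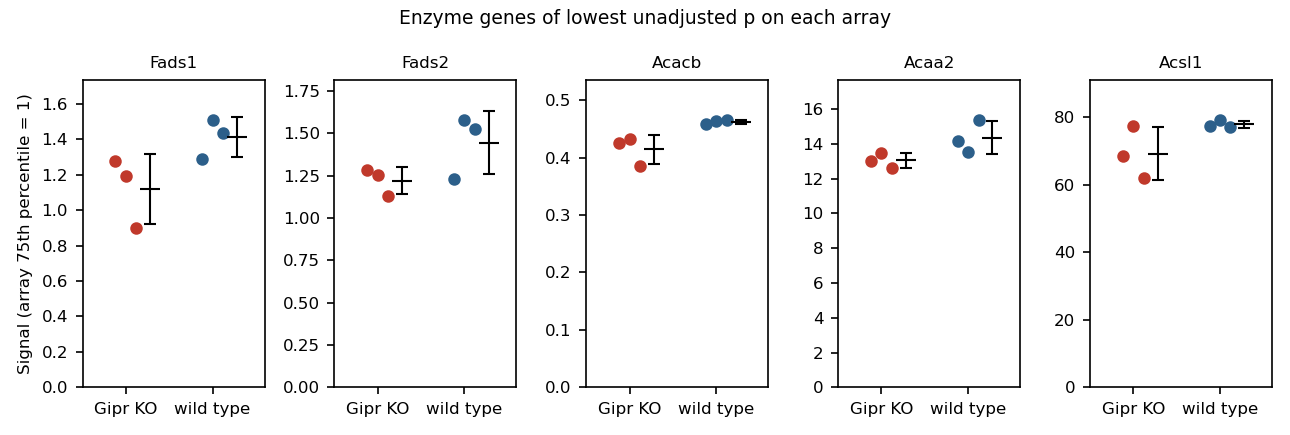
Relative signal on each array (y axis, array 75th percentile = 1) of Fads1, Fads2, Acacb, Acaa2 and Acsl1, the enzyme genes of lowest unadjusted p, with points for replicates 1 to 3 from the left and a bar for mean ± SD of the 3 arrays. Knockout points lie below all wild-type points for Fads1, Acacb and Acaa2 and overlap them for Fads2 and Acsl1.

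Among the regulators, both PGC-1 coactivator genes were higher in all knockout testes, without passing after adjustment, and the groups overlapped for the 3 receptor genes. Ppargc1a encodes PGC-1 alpha, a coactivator of mitochondrial growth and fat oxidation. Its brighter probe (NM_008904, chromosome 5, 51848928 to 51848987 on mm9) read 0.354, 0.268 and 0.322 in the knockout and 0.228, 0.219 and 0.241 in the wild type. Every knockout value was above every wild-type value, replicate 2 the nearest. The difference of 0.45 ± 0.11 is 1.36-fold with a 95% interval of 1.13 to 1.64, and it did not pass (limma adjusted p = 0.597). Its other probe, further along the transcript, read 0.0344, 0.0282 and 0.0372 in the knockout and 0.0276, 0.0271 and 0.0225 in the wild type, again without overlap, at 0.37 ± 0.13 (probe-level adjusted p = 0.639). These probes read the same RNA and are not independent replicates. Ppargc1a ranked 263 of 26933 genes by p.

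The 250 bases before the RefSeq start of Ppargc1a are shown because the gene had the lowest p of the members and is a known cAMP target (GRCm38.p6, chr5:51567726-51567975, minus strand, written in the gene's direction). Capitals mark CGTCA, the reverse complement of TGACG, the core of the cAMP response element.
Ppargc1a: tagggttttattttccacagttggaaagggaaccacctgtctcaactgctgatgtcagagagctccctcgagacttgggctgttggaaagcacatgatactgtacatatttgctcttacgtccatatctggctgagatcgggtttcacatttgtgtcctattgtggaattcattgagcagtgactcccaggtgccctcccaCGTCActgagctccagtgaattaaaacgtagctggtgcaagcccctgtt
The match lies 49 to 45 bases before the start. Searched on both strands, TGACG occurs in 17.8% of all 32851 RefSeq windows of this length and in 6 of the 39 windows of 31 members. The full element TGACGTCA is in 0 of those 39 and in 1.55% of all windows. These are descriptions of letters in a short window, and nothing here measured the binding of a factor. Other possible starts of Ppargc1a were not looked at. Whether this start is used in testis, or is the one that responds to cAMP, was not tested.

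Ppargc1b, the closest relative of Ppargc1a, read 0.0555, 0.0575 and 0.0516 in the knockout and 0.0428, 0.0478 and 0.0447 in the wild type (NM_133249, chromosome 18, 61458222 to 61458281 on mm9). The groups did not overlap, and the difference of 0.28 ± 0.07, or 1.22-fold, did not pass (limma adjusted p = 0.597). Its probe was dim though well above background on all 6 arrays, and with normexp background correction and quantile normalization together the difference was 0.11, against 0.28 with quantile normalization alone. Pprc1, the remaining member of the coactivator family and not among the 36, read 0.108, 0.103 and 0.124 in the knockout against 0.0959, 0.0982 and 0.0937 in the wild type, at 0.21 ± 0.08 (limma adjusted p = 0.662). Low p was commoner among dim genes on these arrays. In the quintile of signal level that holds Ppargc1b, 6.94% of genes were higher and 4.96% lower at an unadjusted p under 0.05, and in the next, which holds Ppargc1a, 4.83% were higher and 4.25% lower.

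**Figure D3:**
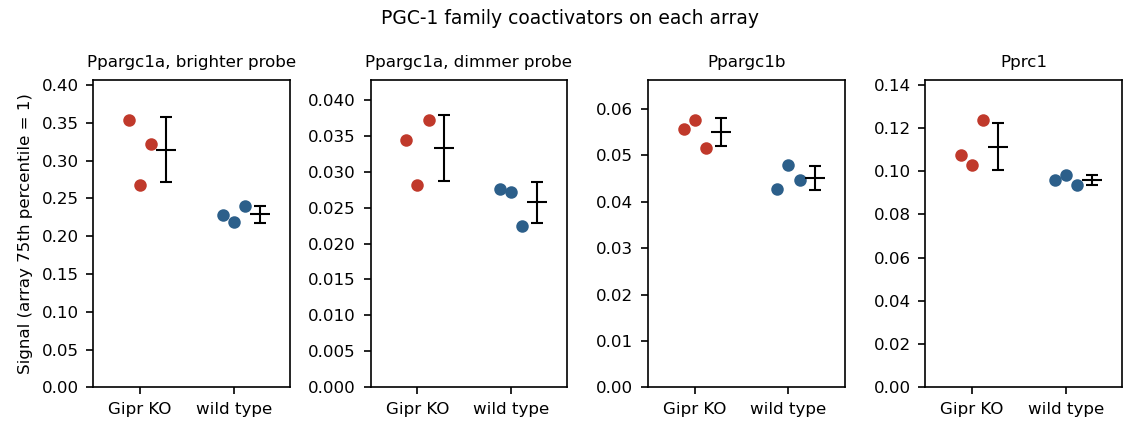
Relative signal on each array (y axis, array 75th percentile = 1) for both Ppargc1a probes, Ppargc1b and Pprc1, with points for replicates 1 to 3 from the left and a bar for mean ± SD of the 3 arrays. All knockout points lie above all wild-type points in each panel, and none of the 4 differences passed after adjustment.

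None of the PPAR receptor genes passed. Ppara, the receptor of fatty acid oxidation, read 0.877, 0.935 and 0.746 in the knockout and 0.911, 0.941 and 0.944 in the wild type. Only replicate 2 of the knockout lay within the wild-type range, and the difference was -0.13 ± 0.09 (limma adjusted p = 0.713). Over the 3 tested Ppara probes the differences ran from -0.13 to -0.0085. Ppard, a broadly present receptor, read 0.356, 0.322 and 0.340 in the knockout and 0.356, 0.334 and 0.337 in the wild type, a difference of -0.02 ± 0.06. Pparg, the receptor of fat storage, read 0.624, 0.547 and 0.614 in the knockout and 0.592, 0.637 and 0.550 in the wild type, a difference of 0.0038 ± 0.08. The adipocyte gene Fabp4 read 3.52, 0.0396 and 0.0266 in the knockout and 0.0813, 2.17 and 0.0432 in the wild type, so knockout replicate 1 and wild-type replicate 2 had a far higher level of this marker. Those same arrays had the highest Pparg values of their genotypes, though knockout replicates 1 and 3 nearly met, at 0.624 and 0.614. For Ppargc1a, knockout replicate 1 and wild-type replicate 2 were the highest knockout and the lowest wild-type array. Whether the Fabp4 level bears on either gene was not tested.

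Other genes of the pathway gave a similar picture. Of 93 further genes listed, 92 were measured, 41 of them higher and 51 lower with a median of -0.03, and 0 passed. Before adjustment 6 of them had a p under 0.05, against the 7.42% of all genes. Among the uptake and binding genes, 11 of 14 were lower. Fabp3, the heart-type fatty acid binding protein, read 30.8, 42.3 and 27.1 in the knockout and 49.2, 41.5 and 62.3 in the wild type, a difference of -0.62 ± 0.21 with overlapping groups (limma adjusted p = 0.662). Fabp12, a binding protein of the same family, differed by -0.27 ± 0.10 and the acyl-CoA binding protein gene Dbi by -0.13 ± 0.06, both without overlap between groups. Among 28 other oxidation genes, Phyh, the peroxisomal phytanoyl-CoA hydroxylase, differed by -0.26 ± 0.07, Ech1, an isomerase of unsaturated chains, by -0.17 ± 0.05 and Decr1, a dienoyl-CoA reductase, by -0.21 ± 0.09.

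Acsbg2, an acyl-CoA synthetase of testis and brainstem, differed by -0.26 ± 0.11, the medium-chain synthetase Acsm3 by -0.16 ± 0.09 and the carnitine carrier Slc25a20 by 0.30 ± 0.19, the last resting on knockout replicate 3 at 1.35 against 0.758 to 0.882 in the wild type. The lowest unadjusted p of these 92 genes belonged to Far2, a fatty acyl-CoA reductase of ether lipid and wax synthesis, at 0.40 ± 0.08 (limma adjusted p = 0.494). It was dim, with 0.0261, 0.0263 and 0.0280 in the knockout and 0.0201, 0.0223 and 0.0185 in the wild type. Its relative Far1 differed by 0.12 ± 0.07 and the sphingolipid desaturase Degs2 by -0.43 ± 0.21. Of the PPAR partners and targets, 12 of 22 were higher, and the retinoid X receptor gene Rxra, with which PPARs pair, differed by -0.15 ± 0.08. None of these passed after adjustment in limma, the lowest adjusted p being that of Far2.

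Several probes per gene allowed a check of probe against probe, but not of the genotype difference, as they share the same arrays. Of the 55 probes, 54 were tested, and 14 genes had more than 1 tested probe. In 12 of the 14 all probes had the same sign, and the exceptions were Cpt1b, near 0, and Fads3. Fads3, a desaturase relative that acts on sphingoid bases, read 0.532, 0.511 and 0.504 in the knockout and 0.581, 0.560 and 0.493 in the wild type with its brighter probe, a difference of -0.08 ± 0.08. Its dim probe, designed on the transcript AK162624, read 0.0562, 0.0554 and 0.0481 in the knockout against 0.0485, 0.0433 and 0.0385 in the wild type, higher by 0.30 ± 0.11 with overlapping groups (probe-level adjusted p = 0.639). In the probe-level fit 0 of the 54 passed, against 0.0463% of all probes, and 5 had an unadjusted p under 0.05, against 7.66%. For Acaca, the probe designed on BC023946 is placed on chromosome 12 by the files and the other 3 on chromosome 11, and its difference was 0.06 ± 0.07.

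**Figure D4:**
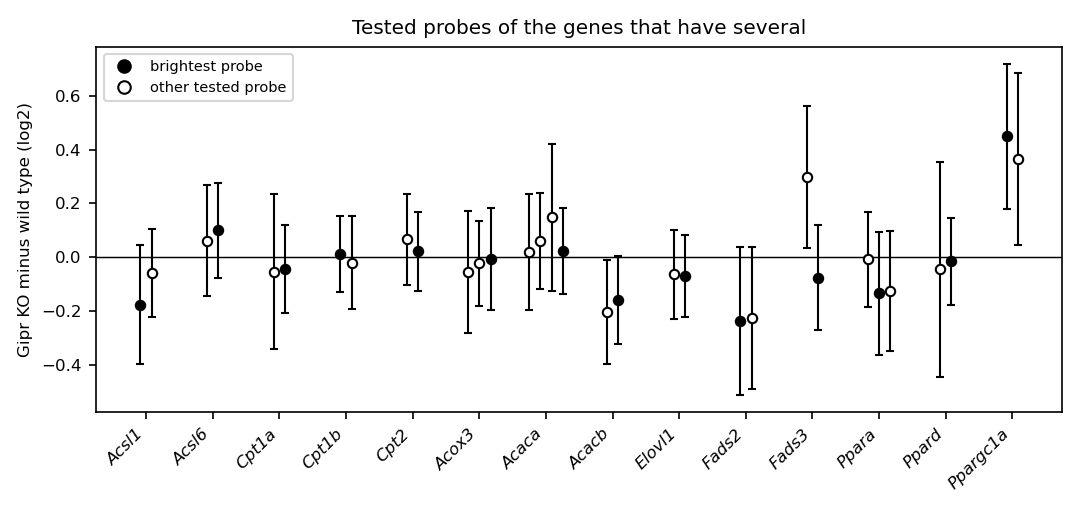
Difference of every tested probe (y axis, Gipr KO minus wild type, log2, with 95% interval over 3 arrays of each genotype) for the 14 genes with several tested probes, filled for the brightest probe and open for the others. The open Fads3 probe at 0.30 stands opposite to its filled probe at -0.08, and both Ppargc1a probes lie above 0.

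Elongation and desaturation genes had their lowest median in knockout replicate 3, as did the beta-oxidation genes and the 36 genes together. So did the Leydig, macrophage, spermatid, endothelial, adipose and blood cell markers. Sertoli, spermatogonial, spermatocyte and myoid markers had their highest median on that array, at log2 deviations of 0.17, 0.15, 0.09 and 0.15. As a log2 deviation from the gene's own 6-array mean, the 9 elongation and desaturation genes had a median of 0.0081, -0.05 and -0.10 in the knockout testes and 0.04, 0.08 and 0.07 in the wild-type testes. For 9 of 10 Leydig markers measured, it was -0.04, 0.06 and -0.46 in the knockout and 0.12, 0.29 and 0.13 in the wild type, and their summed relative signal was 51.7 to 57.8 in the knockout and 60.5 to 65.1 in the wild type. Knockout replicate 3 was the lowest of the 6 arrays for 13 of the 36 genes. Knockout replicates 1 and 2 were lowest for 2 and 4, and wild-type replicates 1 to 3 for 4, 7 and 6. The same share over all genes is not given here, but their median deviation was also lowest in knockout replicate 3, at -0.014. Of 8 macrophage markers measured out of 9, 7 were lower, with medians of 0.04, -0.00027 and -0.34 in the knockout and 0.33, -0.09 and 0.07 in the wild type, and sums of 7.31 to 9.10 in the knockout and 8.48 to 10.4 in the wild type. Of 10 spermatid markers, all measured, 8 were lower with a median difference of -0.10. Their medians were -0.06, 0.08 and -0.15 in the knockout and 0.06, 0.10 and -0.02 in the wild type, and their sums, carried by the brightest probes, 2270 to 2618 in the knockout and 2451 to 2539 in the wild type. For 10 of 10 Sertoli markers, 8 were higher. Their medians overlapped, at 0.0035, -0.0030 and 0.17 in the knockout and 0.05, -0.08 and -0.10 in the wild type. The summed signal of these Sertoli markers, which weighs bright probes most, was 323 to 339 in the knockout and 308 to 312 in the wild type. Of 9 adipose markers, 6 were measured, with sums of 4.19 to 11.1 in the knockout and 4.66 to 9.49 in the wild type, while Lep, Cfd and Car3 were not above background on all arrays of either genotype. Their part in the differences above was not tested.

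**Figure D5:**
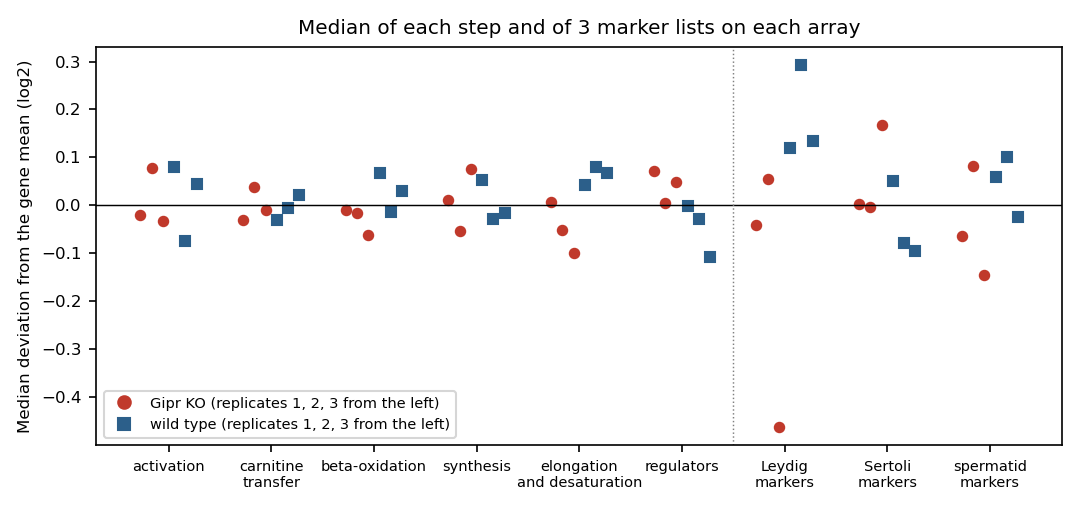
Median over the genes of each step, and over 3 marker lists, of the log2 deviation from the gene's mean over the 6 arrays (y axis), with circles for Gipr KO and squares for wild type. The Leydig median of knockout replicate 3 stands lowest at -0.46, and the elongation and desaturation medians of all 3 knockout arrays lie below those of the wild type.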

How the data were processed

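The deposited scanner files hold spot intensity values on a linear scale, background-subtracted and spatially detrended by Agilent Feature Extraction 10.7.3.1 (design 028005, build mm9), per the file headers. The authors also deposited a value table, equal within 1% to that intensity times 1 factor per array with a median of 200, and it served as an alternative. Spots marked as outliers (117 to 149 per array) were left out, log2 values of a probe's spots were averaged (13 probes had none left on some array), and each array's 75th percentile was subtracted. A probe was tested when well above background on all 3 arrays of a genotype (38884 probes), and a gene was read by its brightest tested probe. Names were updated through RefSeq, by accession for 26762 probes, while 24461 of 55681 kept the name in the files, and no member probe changed its name. Genotypes were compared in limma 3.58.1 (R 4.3.3), two-sided, without covariates, with Benjamini-Hochberg adjustment over all genes. An exact permutation test of 3 against 3 cannot go below p = 0.1. With 3 arrays a group, the number of arrays limits the precision. The fit was tested on simulated data with changes larger than any member difference. That test does not show how often changes of the size seen here would be found. Members, gene lists and tests were chosen with earlier results of these data known. Values on every array are given for the 3 genes of lowest p per step, all regulators and every gene without overlap, and the genes named beyond the 36 are the 3 of lowest p in each list, except 1 that is not reported here. Fabp4, Prm1, Tnp1, Cyp17a1, Hadha, Hadhb, Scd2, Elovl2, Elovl4 and Fads3 were described in more detail after their values were seen. Replicates are separate mice per the series design.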

Additional observations from a re-analysis of the deposited data

How the results depend on the processing

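Over 13 alternative fits and the probe-level fit, 0 of the 36 genes passed in each. The alternatives were normexp with quantile normalization, quantile normalization alone, stricter and no filtering of dim probes, the mean of a gene's probes, the authors' value table, a replicate block, and leaving out each array. The count of all genes that passed was 19 as reported, 7 without a filter on dim probes, 5 with the replicate block, 5 to 13 with an array left out, and 14 to 28 in the others, the 28 with normexp and quantile normalization. Leaving out an array gave 2 to 7 members at an unadjusted p under 0.05 (7 without knockout replicate 2), beside 4.67% to 14.8% of all genes (14.8% without that array), and a member median of -0.047 to 0.0020 (above 0 without wild-type replicate 1). Ppargc1a stayed between 0.36 and 0.56 and Ppargc1b between 0.11 and 0.33, with limma adjusted p of 0.196 to 0.942 and 0.270 to 0.930. The sign held in every alternative for 22 members and changed for 14, each with a reported difference of 0.08 or less in size. The causes were not tested. With normexp and quantile normalization together Hadha was -0.0042, Hadh -0.0029, Elovl2 0.018 and Pparg -0.012. With quantile normalization alone Acox3 was 0.0068 and Elovl2 0.023. With the mean of probes Cpt1b was -0.0043 and Fads3 0.11, and in the authors' table Pparg was -0.014. With an array left out, the ranges were -0.013 to 0.085 for Acsl3, -0.013 to 0.030 for Cpt1b, -0.00052 to 0.046 for Cpt2, -0.094 to 0.013 for Acadl, -0.029 to 0.084 for Hadha and -0.021 to 0.043 for Hadh. They were -0.31 to 0.059 for Acox2, -0.071 to 0.027 for Acox3, -0.094 to 0.0038 for Acaa1a, -0.0094 to 0.056 for Acaca, -0.035 to 0.019 for Elovl2, -0.050 to 0.022 for Ppard and -0.049 to 0.063 for Pparg. Arrays of equal replicate number also share a slide column. Their deviations from the genotype means correlated at 0.05, -0.05 and -0.03 across genes. With deviations taken from means of 3 arrays, such values cannot show whether the animals were paired. The replicate block changed no call among the members. Dim probes limit Acox2, Elovl4 and Ppargc1b.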
